A study of Mus musculus with 2 samples.

Results

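The expression of sarcomere and Z-disc genes was compared between wildtype and Shox2-/- mouse embryos in the right atrium of the heart. The 33 genes were listed by symbol for the proteins they encode, and all 33 were measured among 21225 genes. The right atria, which include the sinus venosus myocardium and the venous valves, came from E11.5 hearts in the CD-1 outbred background, and the labels name no treatment or further allele in either genotype. RNA from 6 embryos of 2 pregnancies was pooled per genotype and each pool was measured on 1 GeneChip Mouse Gene 1.0 ST array. There is thus no replicate, and no error or p-value could be calculated from the deposited values for any difference. The deposited values are log2, and for each gene the wildtype value was subtracted from that of Shox2-/- to give its log2 ratio. The targeted gene Shox2 was at 8.43 in wildtype and 7.48 in Shox2-/- (ratio −0.95).

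The sarcomere is the contractile unit of striated muscle. Thick filaments of myosin pull on thin filaments of actin, which are anchored in the Z-discs at both ends of the unit, and titin spans from the Z-disc to the M-band in its middle. Calcium bound by the troponin complex on the thin filament permits the contraction. Heart muscle uses different isoforms of several of these proteins in atria and ventricles and changes others during development. The genes are therefore given by the place of their proteins in the sarcomere.

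In Shox2-/- right atria most sarcomere and Z-disc genes had values slightly above those of wildtype, and the largest difference was a lower value of the myosin light chain gene Myl2. Of the 33 genes, 26 (78.8%) had a ratio above 0, whereas 54.9% of all genes did. The median ratio was 0.10 for the 33 genes and 0.021 for all genes. At the size thresholds of the study, which are 0.35 and −0.4, Ttn and Ldb3 were higher and Myl2 was lower. The study also required a small P-value from its own ANOVA. That part of its criterion could not be applied to 1 deposited value per gene and array, so only size is counted here. These are 2 of 33 genes past the upper threshold (6.06%), where 1.13% of all genes were, and 1 of 33 past the lower (3.03%), where 1.78% of all genes were. A further 6 genes had ratios from 0.2 up to 0.35, namely Myh7, Mybpc3, Acta1, Actn2, Smyd1 and Ankrd1, and 13 genes lay within 0.1 of 0.

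The arrays differed in a way that depended on the expression level. Among all genes with a mean level from 6 to 8 the median ratio was 0.082, and among those from 8 to 10 it was −0.077. Of the 33 sarcomere and Z-disc genes, 30 lay above the median level of 7.49. In that upper part of the range 33.5% of all genes had a ratio above 0, 0.839% reached 0.35 and 2.8% reached −0.4, whereas 24 of these 30 genes had a ratio above 0. When a smooth trend of the ratio on the level, fitted over all genes, was subtracted, 6 genes were past the upper threshold and 1 past the lower, since Myh7 (0.41), Mybpc3 (0.40), Acta1 (0.40) and Ankrd1 (0.35) joined Ttn (0.52) and Ldb3 (0.48). With the trend removed, 0.952% of all genes were past the upper threshold, 1.5% were past the lower, and 50.6% had a ratio above 0, as had 27 of the 33 genes.

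**Figure D1:**
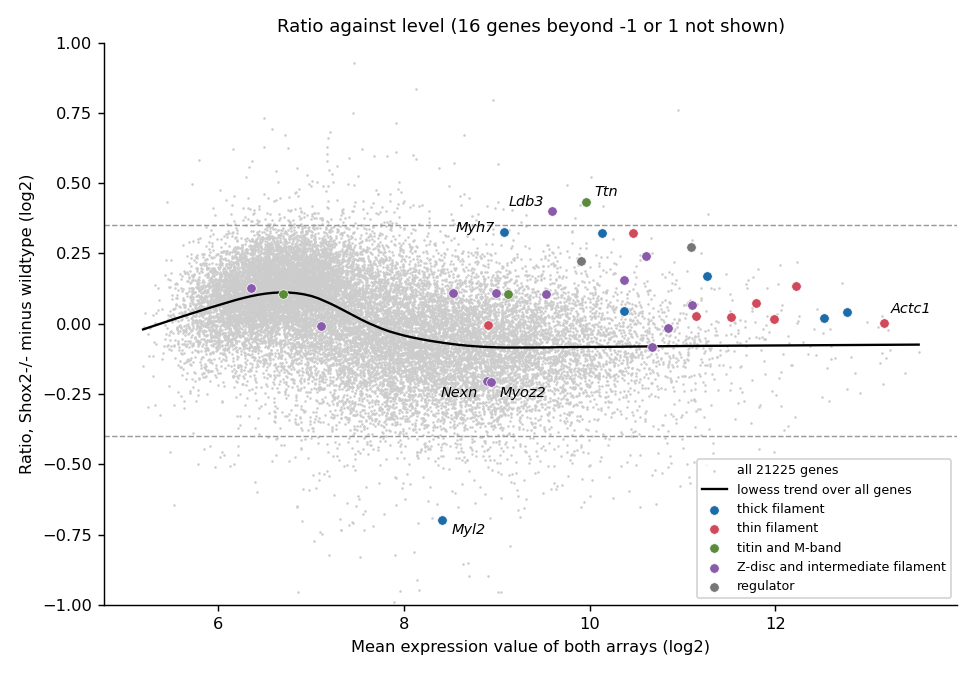
Ratio (Shox2-/- minus wildtype, log2) against the mean expression value of both arrays (log2), with each of the 21225 genes as a grey point, the sarcomere and Z-disc genes coloured by role, the trend over all genes as a black line and the size thresholds of 0.35 and −0.4 dashed. Most coloured points lie above the line, Ttn and Ldb3 lie above the upper threshold and Myl2 below the lower; 16 genes beyond −1 or 1 are not shown.

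Promoters of Ttn, Ldb3, Mybpc3, Acta1 and Myl2, which are among the genes with the largest ratios in either direction, are shown with that of Actc1, whose value was the same on both arrays to 2 decimals, so that the sequence before genes with large and small ratios can be compared. Sequences are from RefSeq (GRCm38.p6), each being the 250 bases before the transcription start, 5′ to 3′ along the gene. Capitals mark the CArG box (bound by serum response factor), the MEF2 site and the TATA box (TATAAA), each searched on both strands without overlap between them in the windows shown.
Ttn, chr2:76982548-76982797, minus strand: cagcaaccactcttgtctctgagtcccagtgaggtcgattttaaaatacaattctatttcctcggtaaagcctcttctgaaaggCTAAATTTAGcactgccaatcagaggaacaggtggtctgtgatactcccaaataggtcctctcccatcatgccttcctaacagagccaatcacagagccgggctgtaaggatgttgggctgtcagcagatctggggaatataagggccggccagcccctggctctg
Mybpc3, chr2:91117894-91118143, plus strand: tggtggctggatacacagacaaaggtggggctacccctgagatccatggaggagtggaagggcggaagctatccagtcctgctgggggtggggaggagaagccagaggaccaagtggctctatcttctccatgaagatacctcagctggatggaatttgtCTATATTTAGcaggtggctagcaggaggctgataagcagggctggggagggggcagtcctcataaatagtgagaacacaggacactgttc
Ldb3, chr14:34588608-34588857, minus strand: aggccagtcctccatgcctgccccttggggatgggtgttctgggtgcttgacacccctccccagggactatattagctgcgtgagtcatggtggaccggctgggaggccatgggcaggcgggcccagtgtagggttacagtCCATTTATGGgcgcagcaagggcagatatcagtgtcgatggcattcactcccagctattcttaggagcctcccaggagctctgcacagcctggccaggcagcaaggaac
Acta1, chr8:123894776-123895025, minus strand: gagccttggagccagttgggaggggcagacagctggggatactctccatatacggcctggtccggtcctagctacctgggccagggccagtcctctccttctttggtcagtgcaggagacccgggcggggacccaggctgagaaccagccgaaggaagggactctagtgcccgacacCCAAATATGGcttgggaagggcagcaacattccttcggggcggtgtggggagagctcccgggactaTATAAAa
Actc1, chr2:114052876-114053125, minus strand: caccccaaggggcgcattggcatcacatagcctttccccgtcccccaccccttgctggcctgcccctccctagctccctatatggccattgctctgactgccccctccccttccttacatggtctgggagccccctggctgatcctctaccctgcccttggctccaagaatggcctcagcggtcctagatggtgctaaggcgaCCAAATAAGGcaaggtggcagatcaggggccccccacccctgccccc
Myl2, chr5:122092939-122093188, plus strand: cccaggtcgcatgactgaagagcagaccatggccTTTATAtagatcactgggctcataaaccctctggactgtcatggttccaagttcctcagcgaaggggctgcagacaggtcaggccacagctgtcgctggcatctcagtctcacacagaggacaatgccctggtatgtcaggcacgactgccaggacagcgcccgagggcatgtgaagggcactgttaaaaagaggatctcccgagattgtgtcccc
The MEF2 site began 166 bases before the start of Ttn and 90 bases before that of Mybpc3. The promoter table holds 2 starts for Ldb3 and 2 for Myl2, and 1 window of each is shown. The CArG box of Ldb3 began 109 bases before the start of the window shown and 35 before the other start. The box of Acta1 began 73 bases and that of Actc1 47 bases before the start. In the Myl2 window the capitals are a TATA box letter match on the opposite strand, far from the start, and the other Myl2 window held none of the 3 motifs. Myh7, whose ratio of 0.33 was above those of Mybpc3 and Acta1, is not shown. Its windows held none of the 3 motifs either.

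Of the 33 genes, 28 had an entry in the promoter table, with 39 windows in all. Cryab, Myom2, Nexn, Tcap and Xirp1 had none. A CArG box was in 8 of the 39 windows (20.5%), of 7 genes, and in 1.47% of all 32851 windows of the same length. The ratios of these 7 genes ran from 0.00 for Actc1 over 0.04 for Myl7, 0.05 for Myl3, 0.11 for Myom1, 0.11 for Nebl and 0.32 for Acta1 to 0.40 for Ldb3. The box thus stood before genes with ratios near 0 and before Ldb3, with the second highest ratio of the 33 genes. A MEF2 site was in 4 windows (10.3%, against 2.92% of all windows), before Ttn (0.43), Mybpc3 (0.32), Xirp2 (0.13) and Myoz2 (−0.21), again over the range of ratios. Neither a CArG box nor a MEF2 site was before Myh7 (0.33), Ankrd1 (0.27), Actn2 (0.24) or Smyd1 (0.22). The same held for Tnnt2 (0.02), Tpm1 (0.02) and Myl2 (−0.70). The MCAT motif CATTCC was in 11 windows (28.2%, against 12.6%), TATAAA in 4 (10.3%, against 12.4%) and the E-box CANNTG in 29 (74.4%, against 66.2%). The homeodomain motif TAATTA was in 1 window (2.56%, against 4.84%), that of Pdlim5. It is longer than the AATT sequence that the paper found essential for SHOX2 binding at ISL1. AATT itself was not searched, so this count does not show whether Shox2 sites are present or lacking. These are matches of letters in 250 bases and not binding sites, and RefSeq lists more than 1 start for some genes, so that windows of a gene can overlap.

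Among the 7 thick filament genes, Myl2 was lower, both myosin heavy chain genes and Mybpc3 were higher by less than the threshold, and the light chain genes Myl3, Myl4 and Myl7 had near equal values on the arrays. Myl2, the ventricular regulatory light chain, had 8.76 on the wildtype and 8.07 on the Shox2-/- array. The ratio was −0.70, which is 61.6% of the wildtype signal. It ranked 43rd from the lowest among 21225 genes and was −0.63 with the trend removed. Both values lay above the receptor level, which stands for background signal. It was set at the value below which 95% of 1291 genes of vomeronasal and olfactory receptors fell (6.78 in wildtype and 6.97 in Shox2-/-).

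The atrial regulatory light chain Myl7 had 12.75 and 12.80 on the wildtype and Shox2-/- arrays. The essential light chains Myl4, of atria and embryonic hearts, and Myl3, of ventricles, had 12.51 and 12.53, and 10.35 and 10.40. Of the 4 light chain genes Myl2 alone was past a threshold. The ratio of Myl2 minus that of Myl7 was −0.74, whereas that of Myl3 minus that of Myl4, the other pair of a ventricular and an atrial light chain, was 0.026.

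Myh7, the beta or slow myosin heavy chain that prevails in the embryonic mouse ventricle, had 8.92 on the wildtype and 9.24 on the Shox2-/- array (ratio 0.33). Myh6, the alpha or fast heavy chain of the atria, had 11.17 and 11.35 (0.17). The ratio of Myh6 minus that of Myh7 was −0.16. Both heavy chain genes were thus higher on the Shox2-/- array, Myh7 by more. Mybpc3, the cardiac myosin binding protein C, went from 9.97 to 10.29 (0.32). The heavy chain genes are near identical over long stretches, as are the sarcomeric actin genes, and how far their probes share signal was not tested, since probe sequences were not used here.

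Since Myl2 is a ventricular gene, 6 further markers of ventricular muscle were set beside it. Of these, 5 had a ratio above 0 and none was past a threshold, with a median of 0.20. Hand1 had 7.07 on the wildtype and 7.36 on the Shox2-/- array, Irx4, a transcription factor gene of the ventricle, 6.95 and 7.20, Gja1 9.43 and 9.66, Mpped2 8.81 and 8.99 and Hey2 8.72 and 8.77. Cited1 was at 9.65 and 9.58. Lower values were thus seen for Myl2 and, by 0.07, for Cited1, and not for the other markers. Irx4 and Hand1 lay near the receptor level on both arrays, and the paper cites aberrant Gja1 in the sinoatrial node of Shox2 mutants. Hand1 (0.29), Irx4 (0.25) and Gja1 (0.23) had the highest ratios of the 6, so the median of these markers leans on them. Subtracting the trend left that median at 0.19, while Hand1 was then at 0.22, Irx4 at 0.16 and Gja1 at 0.31. Of 7 markers of atrial muscle, 5 had a ratio above 0, with a median of 0.12 and ratios from −0.12 (Nppa) to 0.18 (Bmp10).

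**Figure D2:**
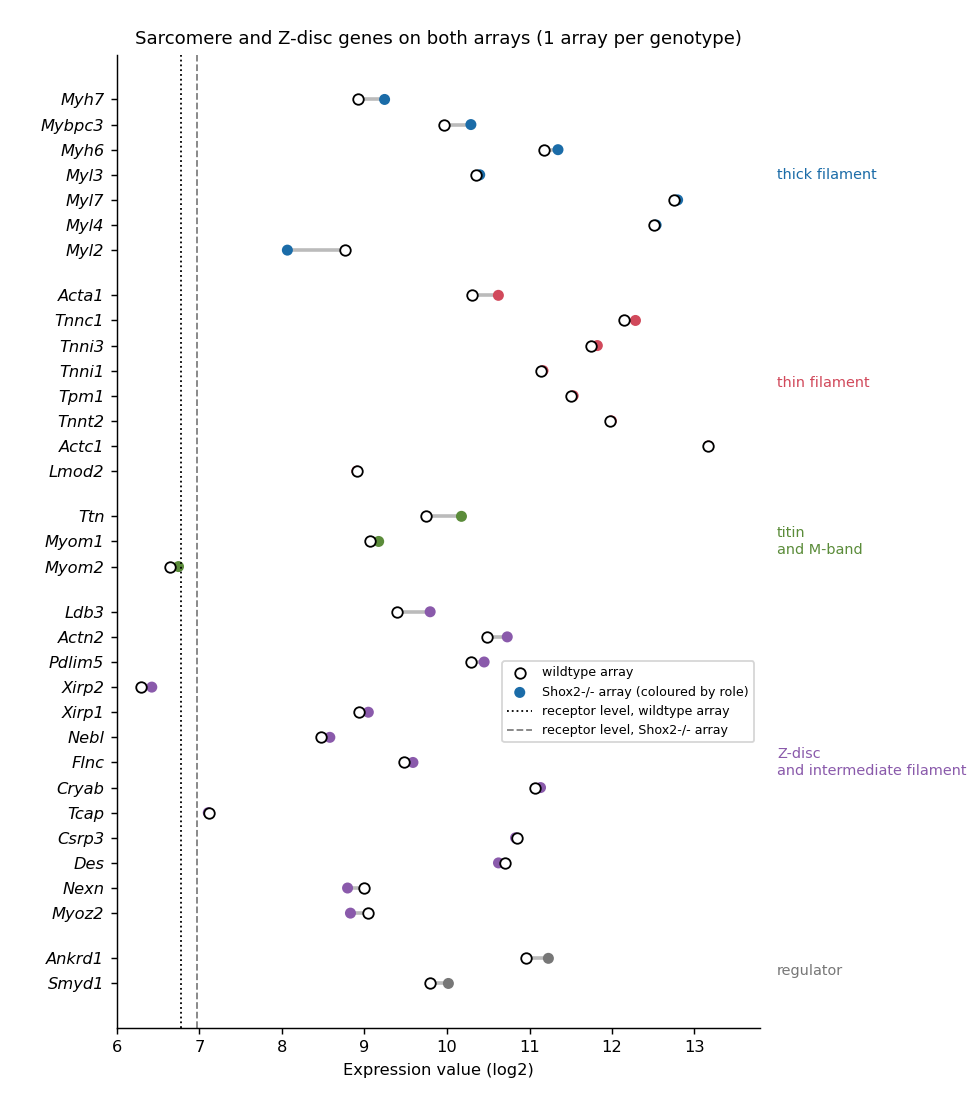
Expression value (log2, horizontal axis) of each sarcomere and Z-disc gene on the wildtype array (open points) and the Shox2-/- array (filled points, coloured by role), with 1 array per genotype and the receptor levels of 6.78 and 6.97 as vertical lines. Myl2 shows the largest gap, from 8.76 to 8.07, and Myom2 and Xirp2 lie left of the lines on both arrays.

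Among the 8 thin filament genes, Acta1 was higher by less than the threshold, and the others had ratios between −0.004 and 0.14, with a median of 0.027 for all 8. Acta1, the skeletal alpha-actin that the embryonic heart also makes, had 10.30 on the wildtype and 10.62 on the Shox2-/- array (ratio 0.32). Actc1, the cardiac alpha-actin, had 13.17 on both arrays. The highest value of any gene on the wildtype array was 13.59, and whether signal so near the top of the range keeps ratios near 0 was not tested.

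The troponin genes had like values on both arrays. Tnnc1, which encodes the calcium binding subunit of heart and slow muscle, had 12.15 and 12.28 on the wildtype and Shox2-/- arrays, with a ratio of 0.14. Tnnt2, the cardiac subunit that ties the complex to tropomyosin, had 11.98 and 11.99. The inhibitory subunits Tnni1, the slow isoform of the embryonic heart, and Tnni3, the cardiac isoform that replaces it around birth, had 11.14 and 11.16, and 11.75 and 11.82. The ratio of Tnni3 minus that of Tnni1 was 0.045, so that their balance was almost the same in both pools. Tpm1, alpha-tropomyosin, had 11.53 on the Shox2-/- array with a ratio of 0.02, and Lmod2, leiomodin 2, which lengthens thin filaments at their pointed ends, had 8.91 on both.

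Ttn had the highest ratio of the 33 genes. It encodes titin, the giant protein that links the Z-disc to the M-band and acts as a molecular spring, and its value was 9.74 on the wildtype and 10.18 on the Shox2-/- array. This ratio of 0.43 is a 1.35-fold higher signal and ranked 87th from the highest among 21225 genes. Myom1, which encodes the M-band protein myomesin 1, had 9.07 and 9.17. Myom2, the M-band protein of adult heart and fast muscle, had 6.64 and 6.75, below the receptor level on both arrays, so that its ratio of 0.10 is a difference between background values.

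Of the 13 genes of the Z-disc and of intermediate filaments, 8 had a ratio above 0 and 5 below, with a median of 0.11. Ldb3, also named Cypher or ZASP, which binds alpha-actinin and holds the Z-disc together under load, had 9.39 on the wildtype and 9.80 on the Shox2-/- array. Its ratio of 0.40 is a 1.32-fold higher signal at rank 130 from the highest. Actn2, the alpha-actinin that crosslinks thin filaments in the Z-disc, had 10.49 and 10.73 (0.24), and Pdlim5, a PDZ and LIM domain protein of the same family as Ldb3, had 10.29 and 10.45 (0.16). Actn2, Ldb3 and Pdlim5 thus had higher values on the Shox2-/- array, Ldb3 alone past the threshold. Of the PDZ and LIM domain genes outside the 33, Pdlim3 (0.18) and Pdlim7 (0.11) had ratios above 0 and Pdlim1 (−0.23) had one below.

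Myoz2 and Nexn had the lowest ratios at the Z-disc. Myoz2, calsarcin 1, which tethers calcineurin to alpha-actinin, had 9.04 on the wildtype and 8.83 on the Shox2-/- array (−0.21). Nexn, the actin binding protein nexilin, had 9.0 and 8.79 (−0.20). Both ratios were −0.12 with the trend removed. The gene of the intermediate filament protein desmin, Des, had 10.71 and 10.62, a ratio of −0.083 that became −0.0027 with the trend removed.

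The remaining genes of the Z-disc and its neighbourhood differed little. Nebl (nebulette) had 8.47 on the wildtype and 8.58 on the Shox2-/- array, Flnc (filamin C) 9.48 and 9.59, and Xirp1 (Xin, of the intercalated disc) 8.94 and 9.05. Csrp3 (muscle LIM protein) had 10.85 and 10.83, Tcap (telethonin, which caps titin) 7.11 on both arrays, and the small heat shock protein gene Cryab 11.07 and 11.13. Tcap lay near the receptor level on both arrays (6.78 in wildtype and 6.97 in Shox2-/-). Xirp2, at 6.29 and 6.42, lay below the receptor level on both arrays.

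The regulators Smyd1 and Ankrd1 were both higher by less than the threshold. Smyd1, a methyltransferase of striated muscle that serves myofibril assembly in zebrafish, had 9.79 on the wildtype and 10.02 on the Shox2-/- array (ratio 0.22). Ankrd1, the cardiac ankyrin repeat protein, which binds titin and rises with mechanical load, had 10.96 and 11.23 (0.27). Without these 2 genes the median ratio of the remaining 31 genes was 0.073.

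**Figure D3:**
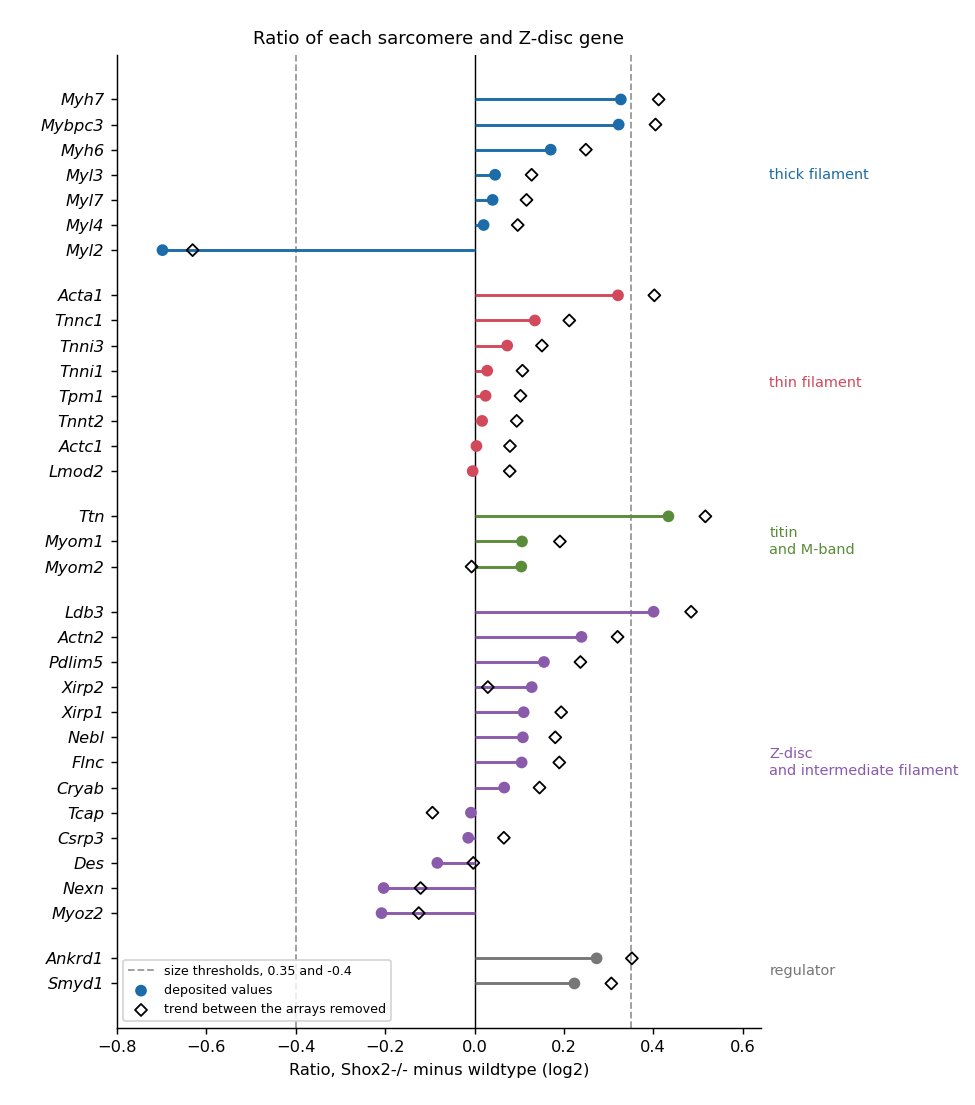
Ratio (Shox2-/- minus wildtype, log2, horizontal axis) of each sarcomere and Z-disc gene, grouped and coloured by role, from the deposited values (filled points) and with the trend between the arrays removed (open diamonds), with the thresholds of 0.35 and −0.4 dashed. Filled points of Ttn and Ldb3 lie past the upper threshold, and those of Myh7, Mybpc3, Acta1 and Ankrd1 reach it only as diamonds.

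The ratios ran over a wider range among genes of middle level than among the brightest, which are fewer. For the 12 genes with a mean level from 8 to 10 they ran from −0.70 to 0.43, for the 14 genes from 10 to 12 from −0.083 to 0.32, and for Myl4, Myl7, Actc1 and Tnnc1, above 12, from 0.0044 to 0.14. The lower end of the first range is Myl2 alone, and the next lowest was Myoz2 (−0.21). Whether the level sets the spread was not tested. The median of all genes in these bins was −0.077, −0.078 and −0.088, below the medians of the sarcomere and Z-disc genes of 0.11, 0.070 and 0.030.

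Other genes of the sarcomere were taken from a list of 59 genes of filament, Z-disc and M-band proteins and their chaperones, of which 57 were measured. None was past a threshold, 38 had a ratio above 0, and the median was 0.11. Many of them encode isoforms of skeletal muscle, and 8 lay below the receptor level on both arrays. For the other 49 the median was 0.054, with 31 ratios above 0. The highest ratios among these were those of Tnnc2 (0.28), the troponin C of fast skeletal muscle, Synpo2l (0.25) and Sorbs2 (0.25), both Z-disc proteins. The lowest were those of Pdlim1 (−0.23), Myoz1 (−0.23) and the pointed-end capping protein gene Tmod1 (−0.14). Tnnc2, at 6.87 on the wildtype and 7.15 on the Shox2-/- array, lay near the receptor level on both. With the trend removed its ratio was 0.19, below those of Synpo2l (0.32) and Sorbs2 (0.33). Unc45b, the myosin chaperone of striated muscle, had 9.15 on the wildtype and 9.38 on the Shox2-/- array.

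Transcription factors known to act on sarcomere genes were also given by their values. Of 11 such genes 8 had a ratio above 0 and none was past a threshold, with a median of 0.11. The highest ratios were those of Nkx2-5 (9.43 on the wildtype and 9.70 on the Shox2-/- array, ratio 0.27), Srf, the serum response factor (9.47 and 9.72, 0.25) and Tbx20 (10.46 and 10.72, 0.25). With the trend removed Nkx2-5, at 0.35, was past the upper threshold. Myocd, the coactivator of Srf, had 9.55 and 9.74. The Mef2 genes Mef2a, Mef2c and Mef2d had ratios of −0.12, 0.05 and 0.00.

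The tissue label was checked with markers of heart muscle, all 10 of which lay above the receptor level on both arrays, with 8 ratios above 0 and a median of 0.11. Of these markers Nkx2-5, Gata4, Tbx5, Tbx20, Hand2 and Mef2c are also on the list of transcription factors above, so these lists are not independent. Some markers used here are not independent of the genotype. The paper cites aberrant Nkx2-5, Nppa, Gja5 and Gja1 in the sinoatrial node of Shox2 mutants. It also uses Tbx18, here on the epicardial list, to mark that node. In tissue samples such as these, a different share of muscle cells and a different amount of RNA per muscle cell cannot be told apart. The paper also holds that some outflow tract tissue likely remained after dissection, to account for residual Isl1 in its knockout samples. The amount of such tissue in each pool was not tested here. All 6 liver markers were lower in the Shox2-/- pool, with ratios from −2.24 to −0.81 (median −1.09) and values from 8.10 to 10.93 on the wildtype and from 5.86 to 9.43 on the Shox2-/- array. All 5 measured red blood cell markers were lower as well, with ratios from −0.62 to −0.33 (median −0.49) and values from 9.71 to 12.38 and from 9.22 to 12.05. Their part in the slightly higher sarcomere ratios was not tested. Medians were 0.23 for 6 mesenchyme markers, with Prrx1 (0.80) and Twist1 (0.42) past the threshold, 0.15 for 6 epicardial, −0.0097 for 6 endothelial and −0.23 for 5 proliferation markers. For 7 smooth muscle markers the median was 0.029, with Lmod1 (0.36) past the threshold and Myh11 at −0.34. With the trend removed Lmod1 was at 0.31 and no smooth muscle marker was past a threshold. Of 10 skeletal muscle markers 6 lay above the receptor level on at least 1 array and 4 did not, among them Myf5 and Myf6, and their ratios ran from 0.047 to 0.30.

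**Figure D4:**
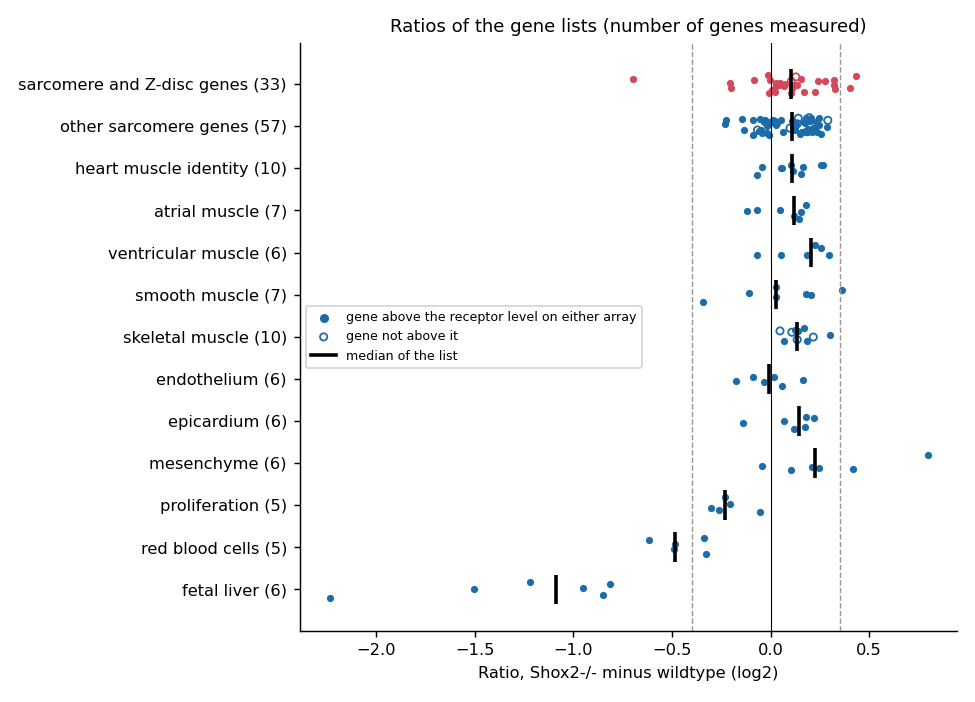
Ratio (Shox2-/- minus wildtype, log2, horizontal axis) of every measured gene of the sarcomere and Z-disc list (red) and of the lists set beside it (blue), with 1 point per gene, open where the gene was not above the receptor level on either array, a black bar at the median of each list and the thresholds of 0.35 and −0.4 dashed. Medians of the muscle lists lie between 0.029 and 0.20, those of red blood cell and liver markers at −0.49 and −1.09.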

How the data were processed

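Right atria of E11.5 wildtype and Shox2-/- embryos were measured with 1 array per genotype. The authors log transformed and quantile normalized perfect-match probe values and fitted them with log-linear models in JMP Genomics 4.0, grouping probes by Entrez gene with Custom CDF version 14 into 1 deposited log2 value for a gene on each array. The log base was read from the range of the values (5.09 to 13.6) and from the log2 ratios that the methods use. The sources used here do not give a background correction or a genome build. Of 21225 genes 20239 had a symbol, updated through Entrez identifiers from RefSeq (GRCm38.p6), and 986 could not be named here. Members and gene lists were chosen with earlier results of these data known. The rule for naming genes took all members and, of the other sarcomere genes and each marker list, those past a threshold and the 3 highest and 3 lowest ratios above the receptor level. For the marker lists the text departs from it and gives the list values with fewer names. Unc45b, Pdlim3, Pdlim7, Nppa, Bmp10, Myh11, Myf5, Myf6, the ventricular markers and the transcription factors were named after their values were seen. No test was made. Alternatives were centring on array medians, subtraction of a lowess trend (span 0.3, 3 iterations), restriction by level, other thresholds and omission of Smyd1 and Ankrd1. The trend fit was checked on simulated data with shifts larger than any ratio of the members. That check does not show how genes near a threshold fare. The precision is limited by the number of arrays. Python 3.11.15, numpy 2.4.6, pandas 2.3.3, statsmodels 0.14.6 and matplotlib 3.10.9 were used.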

Additional observations from a re-analysis of the deposited data

How the results depend on the processing

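Removal of the level-dependent trend raised the number of sarcomere and Z-disc genes at or above 0.35 from 2 to 6, since the trend lay at −0.080 at the median of these genes; the lower count stayed at 1. At a 2-fold change both counts were 0. Centring on array medians, thresholds of 0.4 both ways and leaving out genes below the receptor level or below the median level gave 2 and 1. Centring and these filters could hardly change the counts. The array medians were 7.495 in wildtype and 7.499 in Shox2-/-, and the genes left out (Myom2, Xirp2 and Tcap) were past no threshold. The median ratio of 0.10 was 0.15 with the trend removed and 0.073 for the 31 genes above the receptor level, as it was without Smyd1 and Ankrd1. With the trend removed Lmod1 fell below and Nkx2-5 reached the upper threshold. The differences between the ratios of related isoforms, such as Myh6 and Myh7, moved by less than 0.1 under removal of the trend, and the other sarcomere genes still had 0 past either threshold, with a median of 0.068. Removal of the trend moved the ratio of 1 gene (Myom2) by 0.1 or more, and centring moved none that far. No value past a threshold changed sign, which shifts of this size could not bring about. No paired analysis was possible because each genotype has a single pool, which also means that no replicate can be omitted.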
